A study of Oryctolagus cuniculus with 16 samples.

Results

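C1QA, MRC1 and TYROBP, taken here as a set of perivascular macrophage genes, were followed through all 16 libraries of laser-microdissected rabbit basilar artery. Whether their transcripts came from perivascular macrophages or from other macrophages such as microglia was not tested. They were read as 3 rows of the deposited count table, which holds 13788 gene symbols, of which 11925 had a count in at least 1 library. The members were chosen by their measured counts in these same 16 libraries, so their own levels are given here as a description without a test. Each library held RNA of 1 layer, intima or media, cut from either the straight basilar artery (BA) or the bifurcation at its end, the basilar terminus (BT), of 1 female New Zealand white rabbit 24 h after surgery. Rabbits 3 and 4 had sham surgery with normal flow. In rabbits 5 and 6 both common carotid arteries were ligated, which raises flow through the basilar artery. Every group of layer, location and flow therefore held 2 libraries, and the same 4 rabbits gave all 4 tissues. All 4 were perfused with heparinised saline before the vessel was frozen. Total counts of an intimal library were between 5211886 and 17686105, and those of a medial library between 2154863 and 11219236. The labels limit the tissue by dissection and not by cell type: the intimal strips were about 10 µm wide, and the medial strips spanned the thickness of the medial layer that remained.

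Perivascular macrophages live in the space around the vessels of the brain and in the leptomeninges, outside the smooth muscle coat, where they take up debris and proteins and present antigen. C1QA encodes a chain of C1q, the recognition molecule that starts the classical complement pathway and that tissue macrophages secrete. MRC1 encodes the mannose receptor CD206, an endocytic receptor by which these macrophages are often told from microglia. TYROBP encodes DAP12, the adaptor through which TREM2 and related myeloid receptors signal to the kinase SYK.

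In the sham BT intima all 3 genes were high in rabbit 3 and lower in rabbit 4, and in the ligated BT intima they were absent or down to a single count. C1QA, the complement chain, had 1800 and 15 counts in rabbits 3 and 4, and 0 and 0 counts in rabbits 5 and 6. MRC1, the receptor, had 1133 and 157 counts in the sham libraries, and 0 and 1 in the ligated ones. TYROBP, the adaptor, had 4280 and 232 counts in the sham libraries, and 0 and 1 in the ligated ones. Both ligated libraries lay below both sham libraries for 3 of the 3 genes, which was also the case for 25.5% of the 9276 genes tested in this tissue. In CPM, the count of a gene relative to its library's total after TMM scaling, the mean of the sham libraries was 62.0 ± 84.6 for C1QA, 49.8 ± 38.0 for MRC1 and 162 ± 181 for TYROBP (SD, n = 2). Read against a limit of 3 counts per library for a count of 0, at 95% and for counting error only, the ligated level of C1QA was at least 245-fold lower. On the 1 count of the ligated libraries, the sham mean was 1210-fold higher for MRC1 (95% exact Poisson interval of that count, 212 to 46645) and 3929-fold higher for TYROBP (688 to 151459). Rabbit 3 carried much of this: without it the level of C1QA was at least 8.68-fold lower, and the folds were 558 for MRC1 (97.8 to 21520) and 825 for TYROBP (144 to 31800). Fewer macrophages in a strip and less of these transcripts per macrophage cannot be told apart in such pooled tissue.

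**Figure D1:**
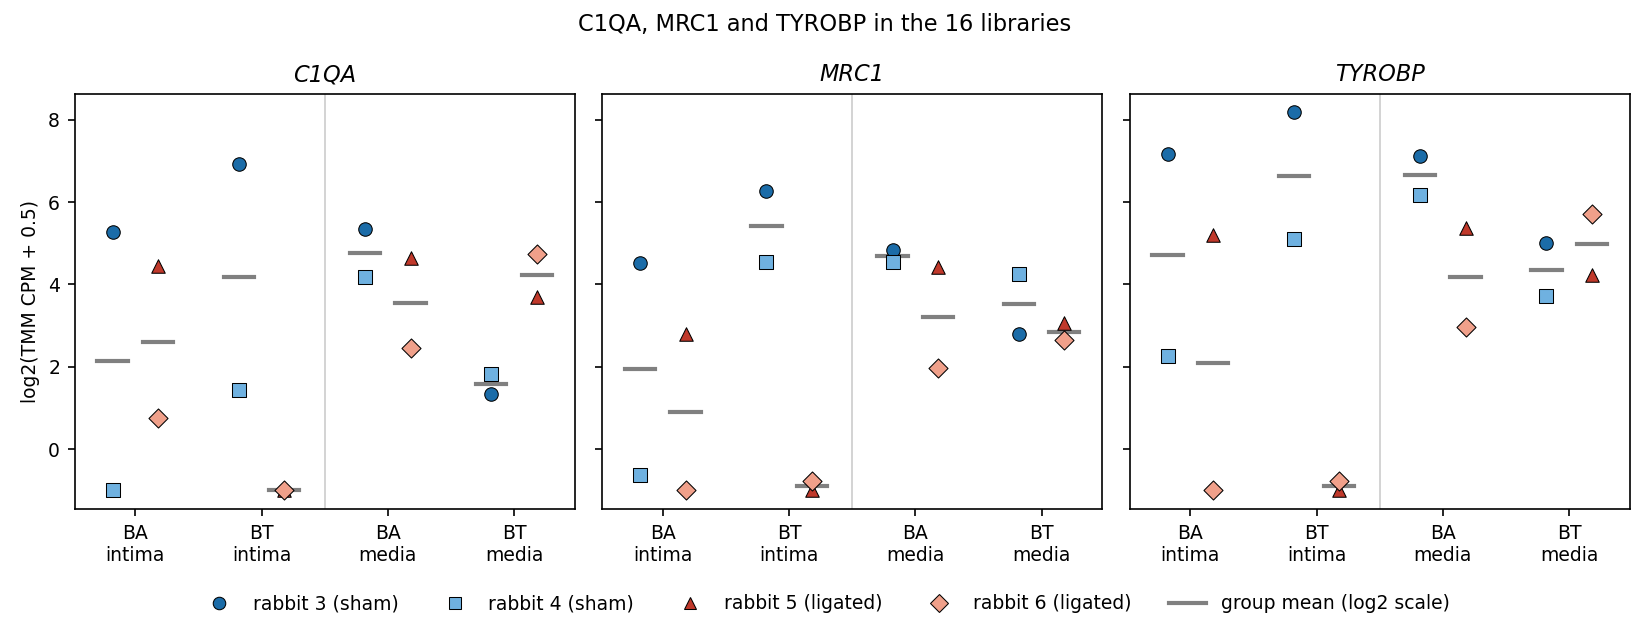
Level of C1QA, MRC1 and TYROBP, as log2(TMM CPM + 0.5), in each of the 16 libraries by location and layer on the x axis. Each point is 1 rabbit, blue for sham and red for ligated, and the grey bars are the means of 2 libraries on the log2 scale. The ligated BT intima is at the bottom for all 3 genes, and the sham libraries of rabbit 3 are far above those of rabbit 4 in the intima.

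The BA intima did not share this pattern. C1QA had 679 and 0 counts in the sham rabbits 3 and 4, and 199 and 7 counts in the ligated rabbits 5 and 6. MRC1 had 399 and 2 counts against 60 and 0. TYROBP had 2544 and 57 counts against 338 and 0. For each of the genes the ligated and sham libraries overlapped, since within both flow groups 1 rabbit was high and the other far lower; of the 8968 genes tested in the BA intima, 20.1% had both ligated libraries below both sham ones. The sham mean was 1.71-fold higher for C1QA (log2 fold change of ligated over sham -0.77, SE 1.96), 3.54-fold higher for MRC1 (-1.81, SE 2.14) and 4.10-fold higher for TYROBP (-2.03, SE 1.81). These directions rested on rabbit 3: without it the ligated mean was the higher one, by 4.23-fold for TYROBP, by 21.4-fold for MRC1 (counting interval 5.92 to 177, on 2 sham counts) and by at least 49.9-fold for C1QA. The fitted change of C1QA also turned without rabbit 6, to 0.14, and those of MRC1 and TYROBP then were -0.83 and -1.04, while without rabbit 5 the fitted values were -4.02, -10.15 and -12.85. Rabbits 3 and 4, which had the same surgery, themselves differed in this tissue by 33.7-fold for TYROBP, by at least 171-fold for C1QA and by 150-fold for MRC1 (counting interval 41.6 to 1242).

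In the media all 3 genes were detected in each of the 8 libraries. In the BA media the sham means were higher. C1QA was at 40.0 and 17.5 CPM in rabbits 3 and 4, and at 24.3 and 4.98 CPM in rabbits 5 and 6. MRC1 was at 28.2 and 22.9 CPM against 21.1 and 3.41 CPM, and TYROBP was at 139 and 71.5 CPM against 41.1 and 7.34 CPM. The sham and ligated libraries did not overlap for MRC1 and TYROBP, where the sham mean was 2.08-fold and 4.35-fold higher, and they overlapped for C1QA at 1.97-fold. Of the 8817 genes tested in the BA media, 26.0% had both ligated libraries below both sham ones. The fitted log2 fold changes were -0.99 (SE 0.88) for C1QA, -1.07 (SE 0.91) for MRC1 and -2.14 (SE 0.77) for TYROBP. They were larger without rabbit 5, at -2.49, -2.86 and -3.80, and smaller without rabbit 6, at -0.24, -0.27 and -1.35. Leaving out rabbit 3 gave -0.24, -0.89 and -1.55, and leaving out rabbit 4 gave -1.48, -1.23 and -2.56. The depth was lowest here, with 1 count worth 0.527 CPM in rabbit 5, whose 3 values rest on 46, 40 and 78 counts.

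In the BT media the genes parted. C1QA was higher after ligation, at 12.5 and 26.4 CPM in rabbits 5 and 6 against 2.03 and 3.06 CPM in rabbits 3 and 4, with no overlap and a 7.63-fold difference of the means (log2 fold change 2.92, SE 0.97). MRC1 was at 7.79 and 5.73 CPM in the ligated libraries, and at 6.39 and 18.7 CPM in the sham libraries, so the groups overlapped (log2 fold change -0.90, SE 0.98). TYROBP was at 18.4 and 51.8 CPM after ligation and at 31.7 and 12.6 CPM in the sham libraries, so the groups overlapped (log2 fold change 0.69, SE 0.70). The log2 fold change of C1QA was 2.27 without rabbit 6. The sign turned for MRC1 without rabbit 4, to 0.09, and for TYROBP without rabbit 6, to -0.27. Of the 8803 genes tested in the BT media, 25.5% had both ligated libraries above both sham ones. The sham values of C1QA stood on 7 and 19 counts. Thus in the same ligated rabbits C1QA was at 0 in the BT intima and at or above 40 counts in the BT media.

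The other subunits of C1q differed in how far they could be read. C1QC, the C chain, had 205 and 11.3 CPM in the sham BT intima and 0 and 0.494 CPM in the ligated one, and in the BT media it was also higher after ligation, at 19.9 and 31.0 CPM against 10.7 and 10.8 CPM. In the BA media C1QC did not follow TYROBP, with 29.0 and 29.3 CPM in the sham and 39.6 and 20.4 CPM in the ligated libraries. C1QB, the B chain, was never above 16 counts in any library, although the 3 chains make up 1 protein. Why its count was so low was not tested.

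Beyond the 3 genes, 60 genes of the macrophage lineage were in the table: the C1q chains, the partners of TYROBP, and markers of perivascular macrophages, of microglia and of macrophages and myeloid cells in general. Their fits were tested by edgeR's quasi-likelihood test with Benjamini-Hochberg adjustment over all genes of a comparison (q-value), at a threshold of 0.05. In the BT intima 40 of the 46 tested were lower after ligation in the fit, 21 had both ligated libraries below both sham libraries (25.5% of all 9276 genes did), and the median log2 fold change was -3.73, against -0.13 over all genes tested. None passed the threshold, as none of the 9276 genes did; 14 of the 46 and 1080 of all genes had an unadjusted p below 0.05, and DESeq2 called 8 and 591. Since many of these medians include genes at 0 in both ligated libraries, for which the fit sets no exact size, -3.73 is a description of the fit. Genes at 0 there passed the filter of a mean above 1 CPM only through the sham group, so the filter fixed their direction as lower. The median also rested on single rabbits, being -0.86 without rabbit 3 and -4.87, -6.43 and -7.23 without rabbits 4, 5 and 6. In the BA intima the median was -2.48, with 31 of 38 genes lower and, among 8968 genes tested, again none past the threshold. Both ligated libraries lay below both sham ones for 8 of the 38, and for 20.1% of all genes. FOLR2, CD53, P2RY13, P2RY12, CX3CR1, CD84 and DOCK2 were among those with counts in the BA intima of rabbit 3 alone. They too passed the filter only through the sham group, which fixed their direction as lower. The direction of the list rested on rabbit 3, without which the median was 0.16. There 6 of the 38 and 532 of all genes had an unadjusted p below 0.05, and DESeq2 called 2 and 116.

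**Figure D2:**
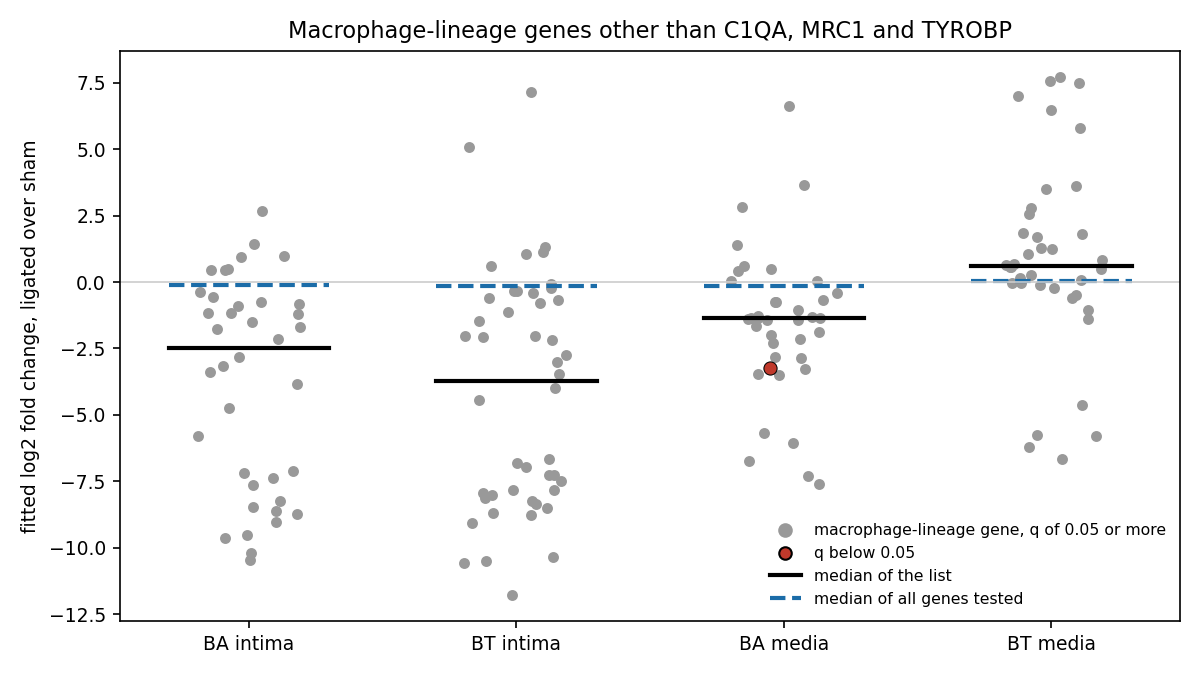
Fitted log2 fold changes of ligated over sham libraries for the macrophage-lineage genes tested in each tissue, C1QA, MRC1 and TYROBP left out. Each point is 1 gene, the red point is CD74, the only gene with a q-value below 0.05, the black bars are the medians of the list (-2.48, -3.73, -1.37 and 0.61 from left to right) and the dashed bars the medians of all genes tested.

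In the BA media 29 of 38 macrophage-lineage genes were lower after ligation, with a median of -1.37, and 1 of them passed the threshold, as lower; of all genes 0.805% passed, 0.374% as lower and 0.431% as higher. This was CD74, the invariant chain of MHC class II molecules, which was at 171 and 186 CPM in the sham and at 26.4 and 12.1 CPM in the ligated libraries, with both ligated rabbits below both sham rabbits (log2 fold change -3.22, SE 0.50, edgeR q = 0.0350). The call was lost when any of the 4 rabbits was left out, and q ran from 4.65e-08 to 0.475 over the alternatives. In the BT media the median was 0.61, with 13 of 38 genes lower and none past the threshold, against 2.34% of all genes (1.16% higher and 1.18% lower). There 3 of the 38 and 1404 of all 8803 genes had an unadjusted p below 0.05, and DESeq2 called 0 and 552. The median was 0.12 without rabbit 6 and 1.18 without rabbit 4. CD74 there was at 23.8 and 51.1 CPM in the sham and 21.8 and 60.1 CPM in the ligated libraries, which overlapped.

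Between the layers, the 3 genes were lower in the intima at the median and far more variable. C1QA had a median of 1.70 CPM over the 8 intimal libraries, from 0 to 122 CPM, and of 15.0 CPM over the 8 medial ones, from 2.03 to 40.0 CPM. MRC1 had medians of 3.27 and 13.3 CPM, with a span of 0 to 76.7 CPM in the intima and of 3.41 to 28.2 CPM in the media. TYROBP had medians of 19.1 and 36.4 CPM, spanning 0 to 290 CPM and 7.34 to 139 CPM. Paired within rabbit and location, the media was the higher layer in 7 of 8 pairs for C1QA, 6 of 8 for MRC1 and 5 of 8 for TYROBP. The exceptions included the BT of rabbit 3 for all 3 genes, where the intima was 59.9-fold higher for C1QA, 11.99-fold for MRC1 and 9.15-fold for TYROBP. The fitted difference of intima over media was -0.54 (SE 1.62) for C1QA, -1.53 (SE 1.21) for MRC1 and -0.66 (SE 1.37) for TYROBP on the log2 scale, and -2.16, -2.66 and -2.01 with the rabbit and location pair as a replicate block. It depended on single rabbits, being -3.91, -3.68 and -2.75 without rabbit 3 and 0.31, -0.82 and 0.07 without rabbit 6. Of the 42 macrophage-lineage genes tested between layers, 5 passed the threshold, against 8.44% of all 9083 genes, and these 5 were higher in the intima, as were 4.56% of all genes. DESeq2 called 7, of which 2 were lower in the intima, as were 2 of the 6 that edgeR called without rabbit 3, and the median of the list went from 0.21 to -1.07 without that rabbit.

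All 5 had counts in the ligated BT intima of rabbit 5, the only library in which C1QA, MRC1 and TYROBP were all at 0. CD14, the lipopolysaccharide co-receptor, was at 54.7 to 121 CPM in the intimal libraries and 2.36 to 27.8 CPM in the medial ones (log2 fold change 2.63, SE 0.44, edgeR q = 0.00247), and it was at 121 and 54.7 CPM in the ligated BT intima, where C1QA was at 0. CTSS, the lysosomal protease cathepsin S, was at 153 to 428 CPM in the intima and 55.5 to 154 CPM in the media (1.39, SE 0.24, edgeR q = 0.00285). LGMN, the lysosomal protease legumain, PLCG2, a phospholipase downstream of immune receptors, and SIGLEC1, the sialic acid receptor CD169, also passed. SIGLEC1 was at 7.02 CPM or less in every library, and its call was lost when any of the rabbits was left out. The calls of LGMN and PLCG2 were lost without rabbit 4 and also without rabbit 6. Without rabbit 6, CD14 alone kept its call in the list.

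Between the locations, the order of BT and BA differed by layer and by rabbit. In the intima all 3 genes were higher in the BT than in the BA in both sham rabbits, for TYROBP by 2.02-fold in rabbit 3 and 7.97-fold in rabbit 4. In the ligated rabbit 5 the BA intima was the higher, by at least 81.8-fold for C1QA, 24.7-fold for MRC1 and 139-fold for TYROBP. In rabbit 6 MRC1 and TYROBP were at 1 count or fewer at both locations. In the media the BA was higher in rabbits 3, 4 and 5 and the BT in rabbit 6, for 3 of 3 genes. For TYROBP the BA media was 4.40-fold, 5.68-fold and 2.24-fold higher in rabbits 3, 4 and 5, and the BT media 7.05-fold higher in rabbit 6. The fitted difference of BT over BA in the media was -1.48 (SE 0.94) for C1QA, -0.94 (SE 0.65) for MRC1 and -0.87 (SE 0.71) for TYROBP, and it stayed below 0 with any rabbit left out, from -2.65 to -0.48, -1.28 to -0.47 and -1.90 to -0.31. In the intima it was -2.09 (SE 3.62), -1.01 (SE 2.67) and -2.30 (SE 2.89), and with rabbit as a replicate block the sign turned for MRC1, to 1.70, and for TYROBP, to 0.35. Without rabbit 5 it was above 0 for all 3 genes, at 0.64, 2.17 and 1.19, without rabbit 6 it was 0.14, 0.61 and -0.41, and without rabbit 3 it was -6.50, -3.65 and -5.70. No macrophage-lineage gene and no other gene passed the threshold between locations by edgeR, of 9137 tested in the intima and 8847 in the media, while 269 and 355 genes had an unadjusted p below 0.05 and DESeq2 called 12 and 24.

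The genes were compared with each other within each layer. In the intima Pearson's r on log2(CPM + 0.5) over 8 libraries was 0.877 for C1QA and MRC1, 0.884 for C1QA and TYROBP and 0.953 for MRC1 and TYROBP, with Spearman's rho of 0.785, 0.859 and 0.928. The 8 libraries came from 4 rabbits and share their locations and depths, and 4 of them, the BA intima of rabbits 4 and 6 and the ligated BT intima of rabbits 5 and 6, had all 3 genes below 5 CPM, so that the coefficients mostly describe libraries with and without these transcripts. In the media, where no library was without them, r was 0.442, 0.721 and 0.612 for the same pairs and rho was 0.452, 0.762 and 0.667. Without the 2 libraries farthest from the median, r was 0.701, 0.721 and 0.953 in the intima and 0.726, 0.932 and 0.0723 in the media, so that which layer had the higher r changed for the pairs with C1QA. The difference between layers was not tested. The BT intima and the BA media of rabbit 3 ranked first in their layers for each of the genes. The least even library was the ligated BT media of rabbit 6, which ranked 2 of 8 for C1QA and 3 for TYROBP but 7 for MRC1.

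**Figure D3:**
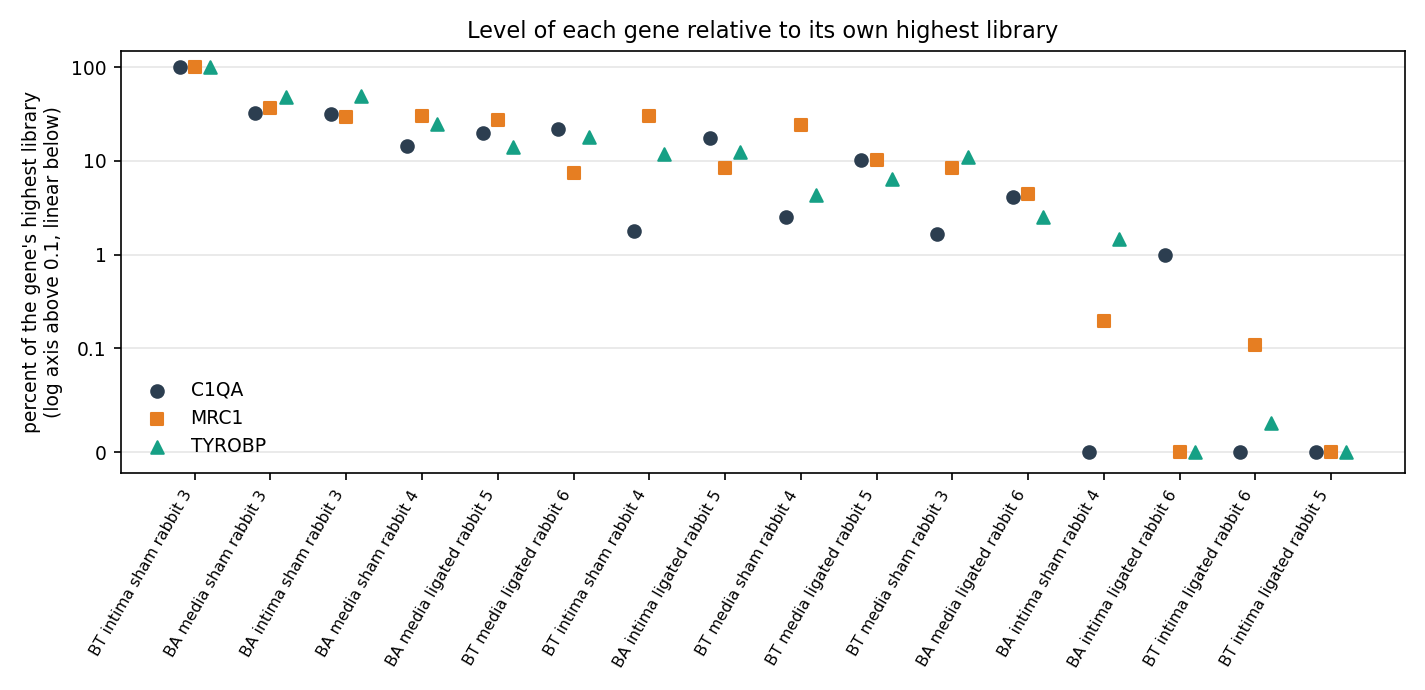
C1QA, MRC1 and TYROBP in each library as a percent of the gene's own highest library, with libraries ordered on the x axis by the mean of the 3. The y axis is logarithmic above 0.1 percent and linear below. All 3 genes peak in the sham BT intima of rabbit 3, and the 4 libraries at the right, all intimal, hold 1.47 percent or less of it.

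Over the 16 libraries, with each layer centred on its own mean, the genes whose pattern was nearest to the 3 were C1QC (mean r 0.914), RLA-DR-ALPHA (0.904), NRN1L (0.893), CD74 (0.890), SLC16A9 (0.886), AIF1 (0.885), F3 (0.884), STEAP4 (0.882), IGDCC4 (0.874) and ISLR (0.873), of 8699 genes ranked. C1QC, the MHC class II genes RLA-DR-ALPHA and CD74, and AIF1, which encodes the macrophage protein IBA1, are genes of macrophages and antigen presentation, and F3 encodes tissue factor. NRN1L, SLC16A9, STEAP4, IGDCC4 and ISLR were in none of the marker lists. Over the 10 nearest genes, r with the mean of the 3 was 0.951 to 0.987 in the intima. In the media it was lower, from 0.377 for IGDCC4 to 0.798 for CD74. The median of this mean r was 0.637 over 6 perivascular macrophage genes (-0.365 to 0.730), 0.497 over 23 general myeloid genes (-0.261 to 0.890), 0.376 over 3 microglial genes and 0.0984 over 3 partners of TYROBP (-0.297 to 0.688), against 0.0361 over all genes ranked. These coefficients describe 16 libraries from 4 rabbits, and many genes share the same few libraries.

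Markers of other cells differed in how far they moved with the 3 genes. Over 17 fibroblast genes of the leptomeninges and adventitia the median mean r was 0.622 (-0.0469 to 0.848). It was 0.167 over 8 smooth muscle genes, -0.0866 over 4 monocyte and neutrophil genes and -0.527 over 2 erythrocyte genes. DCN, the matrix proteoglycan decorin, was at 2832 and 861 CPM in the sham BT intima and at 0 and 32.4 CPM in the ligated one, and in the BA intima it was at 1824 and 8.15 CPM in the sham and 1940 and 17.5 CPM in the ligated libraries, so that the same 2 BA libraries were low for DCN as for the 3 genes, while the highest was that of rabbit 5 for DCN and that of rabbit 3 for C1QA, MRC1 and TYROBP. In the fit of the BT intima 17 of 17 fibroblast genes were lower after ligation, with none past the threshold. Both ligated libraries lay below both sham ones for 13 of them, and for 25.5% of all 9276 genes. The median log2 fold change of the 17 was -4.65, against -0.13 over all genes tested. The summed level of the 17 fibroblast genes was 36279 and 33423 CPM in the sham BT intima and 4988 and 12914 CPM in the ligated one, with MGP, the matrix Gla protein, the most abundant in 15 of the 16 libraries. In the ligated BT intima 9 of the 17 in rabbit 5 and 15 in rabbit 6 had more than 3 counts. In the BA media the fibroblast genes OGN, DCN, COL3A1, COL1A2 and APOD passed the threshold as lower after ligation (0.374% of all genes did) and ALDH1A2 as higher (0.431%), and each of these 6 calls was lost when any rabbit was left out. In the BT media OGN and COL3A1 passed as lower (1.18% of all genes), a call that COL3A1 lost without rabbit 5 or 6 and OGN without rabbit 6. The part of the fibroblast markers in the pattern of the macrophage genes was not tested.

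**Figure D4:**
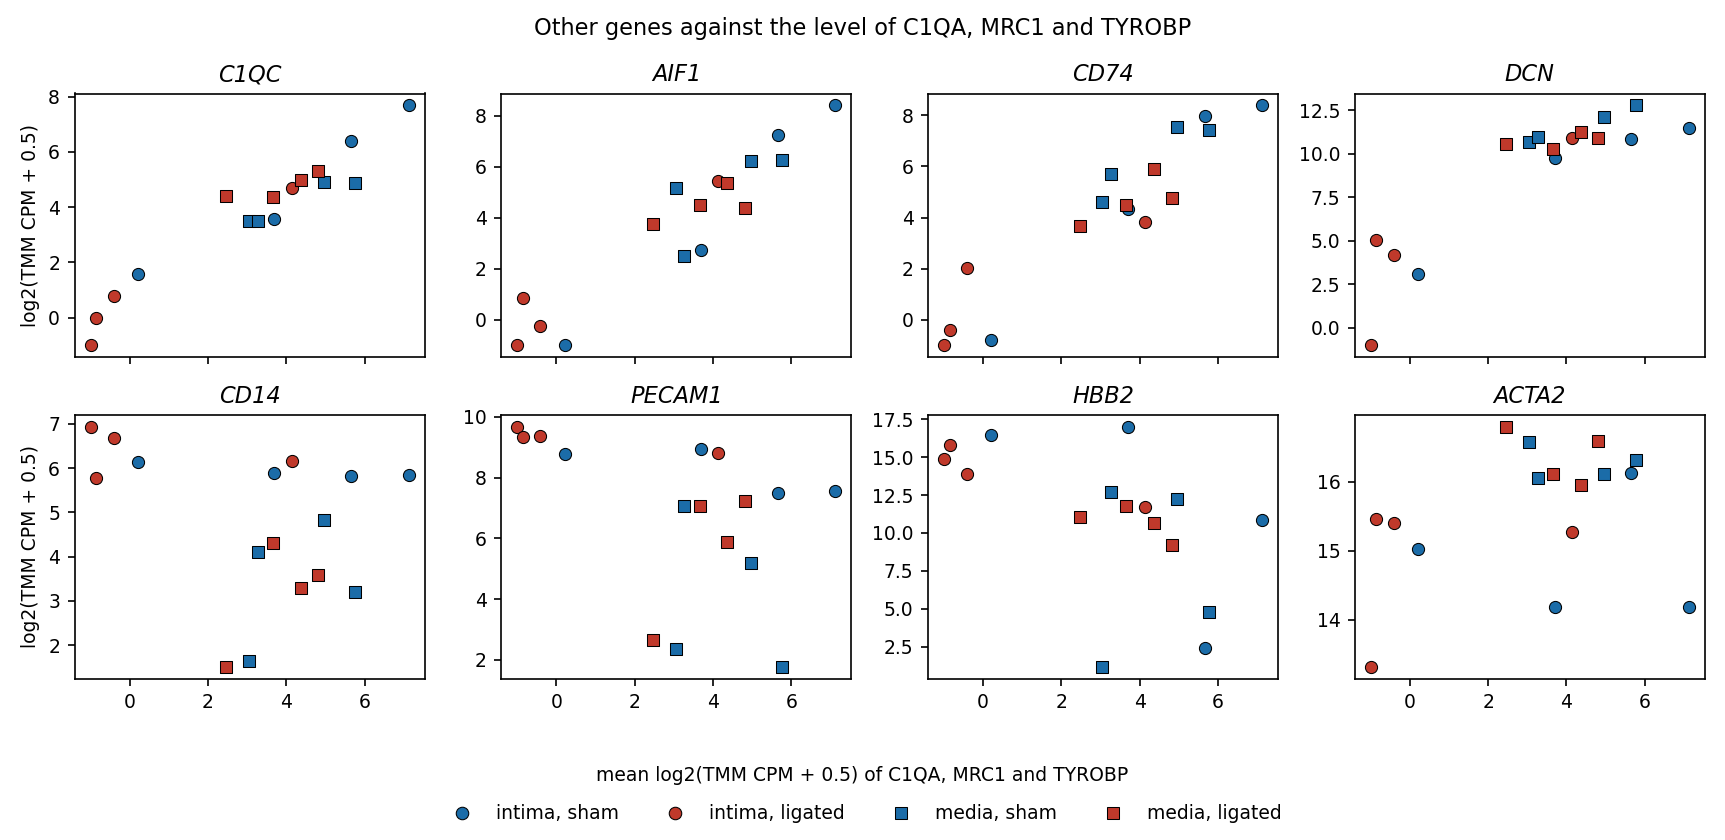
Level of 8 other genes (y axes, log2(TMM CPM + 0.5)) against the mean of C1QA, MRC1 and TYROBP on the same scale (x axes). Each point is 1 of the 16 libraries, circles for intima and squares for media, blue for sham and red for ligated. C1QC, AIF1, CD74 and DCN are low in the 4 intimal libraries at the left, while CD14 and PECAM1 are high there.

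Endothelial genes had a median mean r of -0.316 over 12 genes, from -0.706 to 0.298, with KDR, a receptor of VEGF, at the upper end. PECAM1, the endothelial adhesion molecule CD31, was at 187 and 497 CPM in the sham and 812 and 641 CPM in the ligated BT intima, so all 4 libraries held endothelial transcripts. VWF, von Willebrand factor, was at 451 and 2574 CPM in the sham and 241 and 673 CPM in the ligated BT intima, and KDR at 15.6 and 5.86 CPM in the sham and 0.518 and 0 CPM in the ligated one. Over the list, 3 of 12 endothelial genes were lower after ligation in the fit of this tissue, with a median log2 fold change of 0.70 against -0.13 over all genes tested, and none passed the threshold. The haemoglobin gene HBB2, a red cell transcript, was at 1876 and 129410 CPM in the sham and 29861 and 56851 CPM in the ligated BT intima. In the BA intima it was at 4.68 CPM in rabbit 3 and 91373 CPM in rabbit 4, and the part of blood in the difference between these rabbits was not tested. ACTA2, the smooth muscle actin, was at 10255 CPM or more in every intimal library, below the 63200 CPM or more of the medial ones in all but the BA intima of rabbit 3, at 71630 CPM.

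The label of a perivascular macrophage could be checked in part. CD163, the haemoglobin scavenger receptor, was at 5.48 and 1.61 CPM in the sham and 0 and 0 CPM in the ligated BT intima, and at 10.5 to 14.4 CPM in the BA media. STAB1, a scavenger receptor, was at 50.1 and 13.2 CPM in the sham and 11.1 and 4.03 CPM in the ligated BT intima. FOLR2 was at 74.6 and 2.20 CPM in the sham and 0 and 0 CPM in the ligated BT intima. LYVE1, the hyaluronan receptor also made by lymphatic endothelium, was highest, at 64.0 CPM, in the ligated BT intima of rabbit 5, where C1QA, MRC1 and TYROBP were at 0. SIGLEC1 was at 0.744 and 6.44 CPM in the sham and 5.53 and 0.0823 CPM in the ligated BT intima. The mean r with the 3 genes was -0.365 for LYVE1 and -0.00853 for SIGLEC1. For CD163, STAB1, FOLR2 and DAB2 it was 0.608, 0.666, 0.730 and 0.727. The receptor of macrophage growth factor, CSF1R, was at 2.10 CPM or less in all libraries. Of 9 perivascular macrophage genes other than MRC1, 6 in rabbit 3 and 6 in rabbit 4 had more than 3 counts in the sham BT intima, and 4 in rabbit 5 and 3 in rabbit 6 in the ligated one. DAB2, an endocytic adaptor that other cells also use, was the largest part of their sum in every library.

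Microglial markers differed among themselves in the intima. P2RY12, a purine receptor of microglia, was at 3.32 CPM in the BT intima and 7.61 CPM in the BA intima of rabbit 3 and at 0 in the other 6 intimal libraries. TREM2, the receptor that signals through TYROBP, was at 33.4 and 53.0 CPM in the same libraries, at 5.75 CPM in the ligated BA intima of rabbit 5 and at 0 in the other 5 intimal libraries. All 6 microglial genes in the table had more than 3 counts in both intimal libraries of rabbit 3, where C1QA and TYROBP had their highest and next highest levels of the intima. GPR34, a lysophospholipid receptor of microglia, was at 11.9 and 35.6 CPM there but higher, at 50.3 CPM, in the ligated BA intima of rabbit 5, and at 0 in the other 5 intimal libraries. The part of microglia in the level of C1QA and TYROBP was not tested. S100A9, a calprotectin subunit of neutrophils and monocytes, was higher in each ligated intimal library (723 to 2574 CPM) than in each sham one (17.1 to 315 CPM) and was lowest in rabbit 3. Its rise with ligation passed the threshold in the BT media (log2 fold change 7.38, SE 1.01, edgeR q = 0.00357) and in none of the other tissues. Of all genes tested in the BT media, 1.16% passed as higher. The share of all genes ordered like S100A9 over the intimal libraries is not given here. S100A8, the other calprotectin subunit, was instead lower in the ligated BT intima, at 5.27 and 0.906 CPM against 11.9 and 17.3 CPM, and of 6 monocyte and neutrophil genes tested there 3 were lower after ligation and none passed the threshold.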

How the data were processed

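RNA was amplified with SMART-Seq v4, sequenced as single reads of 75 cycles, aligned by the authors to OryCun2.0 with STAR, filtered for unique reads and counted on Ensembl exons with featureCounts 1.6.2. What they deposited is a table of raw counts by gene symbol, not normalized; all 16 columns were used. Counting was set to the reverse strand, although SMART-Seq v4 with Nextera libraries does not keep strand, so reads may have been left out and genes that overlap cannot be told apart; the effect on single genes was not tested. The 1 entry without a symbol (13.8% to 18.7% of a library) was left out. Levels are CPM with TMM factors over 16 libraries. Comparisons used edgeR 4.0.16 in R 4.3.3 (quasi-likelihood, legacy form, genes with a mean above 1 CPM in at least 1 group, Benjamini-Hochberg q-value below 0.05). Each flow comparison set 2 ligated against 2 sham rabbits; layer was fitted over 16 libraries with location and flow as covariate, and location over 8 with flow. Alternatives were RLE factors, library size alone, all genes with a count, DESeq2 1.42.0, a replicate block and leaving out each rabbit. The rabbit pairs the libraries, as tissues came from the same animals; deviations of paired libraries correlated at -0.0348 to 0.394. Libraries of a group differed by a chi-square per degree of freedom of 22.5 to 456, far above counting error. Depth set 1 count at 0.0564 to 0.527 CPM.

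The members and gene lists were chosen with earlier results of these data known. Named genes were C1QA, MRC1 and TYROBP, the 10 genes of highest mean Pearson's r with them among genes above 1 CPM on average, and members of the lists where a list is described. CD68, F13A1, PF4, CD209, MAF, MS4A7, CLEC10A, FCER1G and SALL1 were not analysed here.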

Additional observations from a re-analysis of the deposited data

Results flagged for a closer look

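The change of C1QA with ligation went opposite ways in the layers of the BT. On the mean log2(CPM + 0.5) scale it was -5.18 in the intima and 2.64 in the media, a difference of 7.82, and both ligated rabbits lay below both sham rabbits in the intima and above them in the media. Of all genes tested, 25.5% had the first order in the BT intima and 25.5% the second in the BT media. The share with both is not given here. The difference of BT and BA in the intima turned with flow for C1QA, from 2.04 in the sham rabbits to -3.60 in the ligated ones, a difference of -5.65. At the BT the difference of intima and media turned likewise for MRC1, from 1.89 in the sham to -3.73 in the ligated rabbits, a difference of -5.62. For TYROBP it turned from 2.29 to -5.86, a difference of -8.15. The first was picked out because the flow groups did not overlap in either layer and lay in opposite orders, and the other 3 because both sham rabbits differed one way and both ligated rabbits the opposite way. None of the 4 differences was tested, each rests on 2 rabbits against 2, and the values of genes at 0 counts depend on the pseudocount.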

How the results depend on the processing

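With 2 rabbits a group, counts of genes past the threshold depended on the tool and on single rabbits. With all genes that had a count, the flow comparisons called 123 (BA) and 346 (BT) genes in the intima and 507 (BA) and 557 (BT) in the media, with 7 between locations in the intima and 48 in the media, of which 3, 8 and 5 in the first 3 tissues and 1 between locations in the media were macrophage-lineage genes. DESeq2 called 116, 591, 465 and 552 genes for flow in the same order, 1292 between layers (7 of the macrophage lineage), and 12 and 24 between locations, with 2, 8 and 4 macrophage-lineage genes in the first 3 tissues and 1 between locations in the media. The causes were not tested. With library size alone, 2 macrophage-lineage genes were called in the BA media, and the share of calls that were higher went from 53.5% to 38.4% there, from 49.5% to 64.9% at the BT and from 54.0% to 78.5% between layers, while the median log2 fold change over all genes moved from -0.14 to -0.29, from 0.03 to 0.18 and from 0.07 to 0.30. The replicate block gave 1 gene between locations in the intima, 2 in the media and 816 between layers (767 without it), and it ended no call of a named gene.

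Leaving out each rabbit in turn gave 0 to 122 (BA) and 0 to 113 (BT) genes for flow in the intima, 0 to 2 (BA) and 13 to 641 (BT) in the media, and 72 to 876 between layers. Macrophage-lineage calls ran from 0 to 7, 0 to 4, 0 to 0, 0 to 1 and 1 to 6 in these comparisons. With rabbit 4 left out, the macrophage-lineage list had a median log2 fold change of -3.12 for BA intima and -4.87 for BT intima. Over all genes tested, the same fits had medians of -0.02 and -0.12. With rabbit 3 left out, the list median for BA intima was 0.16, against -0.01 over all genes tested. Each of these flow fits sets 1 library against 2 and assumes that the lone library varies like the others. The lowest fold of sham over ligated BT intima (the bound of C1QA and the lower interval end of TYROBP) ran from 8.68 to 481 for C1QA and from 144 to 1232 for TYROBP. In the intima r ran from 0.701 to 0.972 for C1QA and MRC1 and from 0.721 to 0.977 for C1QA and TYROBP, and the lower values, without rabbit 3, are also those without the 2 libraries farthest from the median (0.701 and 0.721). In the media it ran from 0.144 to 0.675, from 0.659 to 0.854 and from 0.504 to 0.786 for C1QA and MRC1, C1QA and TYROBP, and MRC1 and TYROBP, and it was 0.726, 0.932 and 0.0723 without the 2 farthest libraries. The fitted changes of C1QA, MRC1 and TYROBP kept their sign in 18 of 18 values with RLE factors, 18 of 18 with library size alone, 59 of 72 with a rabbit left out and 7 of 9 with the replicate block. The fitted changes with flow in the BT intima were not among these values. A count of 0 could not be told from up to 3 counts, or 0.169 to 1.58 CPM by library.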
